A study of Mus musculus with 2 samples.

Results

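The subject is a set of 10 imprinted genes of the mouse, Meg3, Dlk1, H19, Igf2, Cdkn1c, Grb10, Plagl1, Peg3, Nnat and Gnas, in the pancreas. They were taken by name from the 43346 gene rows of the deposited tables, and all 10 were found. The samples are 2 technical libraries, replicate 2 and replicate 1, of polyadenylated RNA from the pancreas of 1 female C57BL/6J mouse of 10 weeks, with no treatment or engineered allele in the labels. They form 1 group, so the data hold no comparison between conditions, and every spread below is technical. Values are deposited TPM (a level per transcript, corrected for transcript length and scaled to the same total in each library) and expected counts (the estimated number of reads of a gene). A 95% exact Poisson interval of the expected count goes with each level. It covers counting error only, since PCR copies are not independent molecules. The share of all genes whose intervals do not overlap between the libraries was not computed, so a lack of overlap is not read as particular to the members.

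Imprinted genes are expressed mainly from the allele inherited from 1 parent, under DNA methylation marks set in the germ line. Many lie in clusters in which a growth-promoting protein gene and a non-coding RNA gene are expressed from opposite alleles, as Dlk1 and Meg3 are on chromosome 12 and Igf2 and H19 on chromosome 7. As background, Meg3, H19, Cdkn1c and Grb10 are known mainly as maternally expressed genes and Dlk1, Igf2, Plagl1, Peg3 and Nnat as paternally expressed ones, while Gnas holds promoters of both kinds. Many of these genes are known for their part in fetal growth and several for high expression in endocrine cells. C57BL/6J is inbred, so both alleles have the same sequence and the parent of origin of a read cannot be read from these libraries. In whole tissue, fewer cells of a type and less RNA per cell cannot be told apart.

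The sequences that separate the products of Gnas are its splice junctions, since transcripts from 4 start regions share exon 2. Gs alpha is the stimulatory G protein subunit that couples hormone receptors to cyclic AMP, and XL is its long variant. Nesp encodes the secretory protein NESP55. Transcripts of exon 1A are known mainly as non-coding, though Gnas-202, which starts in that region, is annotated as protein-coding with 394 codons. The 15 bases before the junction (lower case) and the first 15 of exon 2 (capitals, chr2:174334212-174334226, plus strand, GRCm38) were read from the transcript sequences of GENCODE M21. The upstream part lies at chr2:174330420-174330434 for Gs alpha, chr2:174300203-174300217 for XL, chr2:174285463-174285477 for Nesp and chr2:174328117-174328131 for exon 1A.
Gs alpha, Gnas-208: gcctgctgctgctggGTGCTGGAGAGTCTG
XL, Gnas-201: gcctgctgcttctagGTGCTGGAGAGTCTG
Nesp, Gnas-211: ttttcatggataaagGTGCTGGAGAGTCTG
Exon 1A, Gnas-221: aaggagcacctaaggGTGCTGGAGAGTCTG

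Within Gs alpha, the forms differ at exon 3, of 45 bases (chr2:174336747-174336791). The next 3 sequences join the last 15 bases of exon 2 (chr2:174334270-174334284) to the first 15 of exon 4 (chr2:174341653-174341667), and capitals mark what is added between them. Gnas-208 holds exon 3, Gnas-206 skips it, and Gnas-207 skips it with an acceptor 3 bases earlier.
Gnas-208: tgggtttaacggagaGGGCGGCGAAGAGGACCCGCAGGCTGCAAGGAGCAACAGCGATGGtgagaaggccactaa
Gnas-206: tgggtttaacggagatgagaaggccactaa
Gnas-207: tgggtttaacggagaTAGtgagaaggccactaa

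Meg3 and H19 are host genes of microRNAs, and the mature sequences are shown because 1 transcript of each gene, among those with the same length in GENCODE M4 and M21, holds the hairpin in an exon. The miR-770 hairpin lies in the last exon of Meg3-209 (chr12:109563692-109563785, plus strand) and the miR-675 hairpin in an exon of H19-202 (chr7:142577064-142577147, minus strand). Sequences and positions are those of RefSeq on GRCm38.p6, and capitals mark the seed, bases 2 to 8.
miR-770-5p: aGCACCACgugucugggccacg
miR-770-3p: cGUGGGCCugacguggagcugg
miR-675-5p: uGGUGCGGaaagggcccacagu
miR-675-3p: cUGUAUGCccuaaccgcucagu
The 4 mature miRNAs have 4 distinct seeds, so none is shared. The mature miRNAs themselves were not measured by these libraries of polyadenylated RNA.

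The libraries differ in make-up. The totals of expected counts were 9797569 for replicate 2 and 9441559 for replicate 1. The lincRNA Gm42418 took 42.8% of counts in replicate 2 and 16.9% in replicate 1, and mitochondrial genes took 3.17% in replicate 2 and 17.6% in replicate 1. After 4 sources (mitochondrial genes, Gm42418, Gm26917 and Lars2) were set aside, 599494 TPM in replicate 2 and 621440 TPM in replicate 1 were left for all other genes. The markers bore out the pancreas label: all 8 acinar markers reached 1 TPM in both libraries, and their levels summed to 93661 TPM in replicate 2 and to 81168 TPM in replicate 1. Of the 8 beta cell markers 7 did so, and Mafa, a beta cell transcription factor, had 18 counts in replicate 2 and 0 in replicate 1.

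Of the 10 imprinted genes, 9 reached 1 TPM in both libraries, a level that 10332 genes of the table reached. The exception was Dlk1, at 0.90 TPM in replicate 2, though by the deposited posterior mean TPM (2.09 in replicate 2) or with TPM rescaled without mitochondrial genes, Gm42418, Gm26917 and Lars2 (1.5 in replicate 2) all 10 passed. Summed, the 10 genes held 280.5 TPM in replicate 2 and 393 TPM in replicate 1, and Gnas and Meg3 together made up 83.8% of this in replicate 2 and 80.7% in replicate 1. By mean TPM, Gnas stood above 98.4% of the genes detected in both libraries, Meg3 above 97.6%, Peg3 above 92.1%, Grb10 above 74.5% and H19 above 18.8%. The 10 genes thus spanned a wide range of detected levels.

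**Figure D1:**
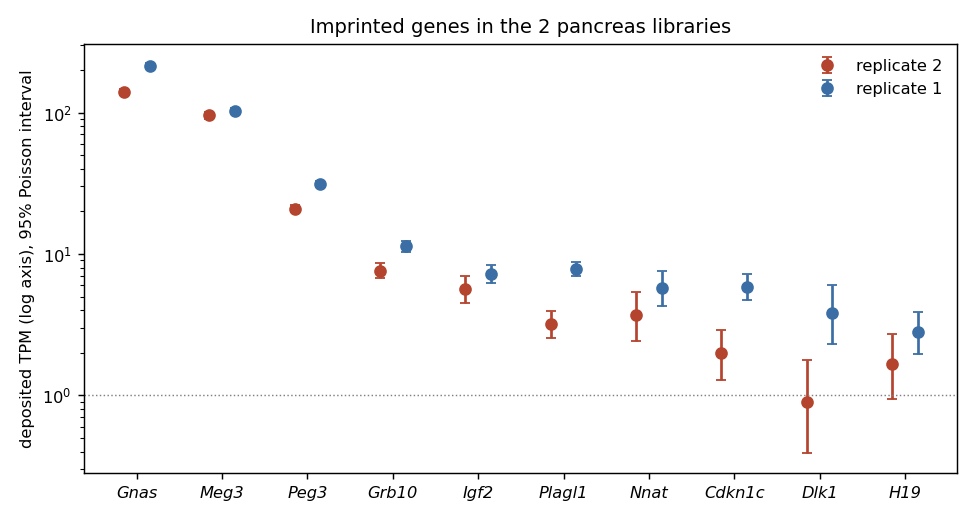
Deposited TPM of the 10 imprinted genes on a log axis, ordered by mean, with replicate 2 left of replicate 1 for each gene. Bars are 95% exact Poisson intervals of the expected count, and the dotted line marks 1 TPM. Gnas and Meg3 lie above 90 TPM, the 6 genes on the right lie under 10 TPM, and each of the 10 was lower in replicate 2. The share of all genes with a lower TPM in replicate 2 was not computed.

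Dlk1 encodes a membrane protein with EGF-like repeats that is related to the Notch ligands and is known in the pancreas from endocrine cells (chr12:109452823-109463336, plus strand). Its level was 0.90 TPM in replicate 2 (0.389 to 1.77) from 8 counts, against 3.85 TPM in replicate 1 (2.32 to 6.01) from 19 counts. These intervals do not overlap, but the effective length that divides the counts was 1178 bases in replicate 2 and 564.8 bases in replicate 1, and the tables assign the reads to different transcripts. On counts scaled by TMM factors (trimmed mean of M values), the log2 ratio of replicate 2 over replicate 1 was -0.72 (95% exact interval -2.17 to 0.49), an interval that includes 0.

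Meg3 is the long non-coding RNA gene of the same cluster (chr12:109541001-109571726, plus strand). It reached 95.4 TPM in replicate 2 (90.5 to 100.6) and 102.8 TPM in replicate 1 (98.5 to 107.1), from 1391 counts in replicate 2 and 2215 in replicate 1. The intervals overlap, and its mean of 99.1 ± 5.16 TPM (SD, n = 2 technical libraries) had the smallest relative spread of the 10 genes. The effective length of Meg3 was 1935 bases in replicate 2 and 2468 bases in replicate 1, however. On TMM-scaled counts its log2 ratio was -0.19 (95% exact interval -0.29 to -0.09), an interval below 0. The ratio of Meg3 to Dlk1 TPM was 106 in replicate 2 (53.7 to 246) and 26.7 in replicate 1 (17.0 to 44.4), so Meg3 was far above Dlk1 in both libraries, and the size of the ratio rests on few Dlk1 reads. Rian, the non-coding RNA downstream of Meg3, had 60.2 TPM in replicate 2 and 76.1 TPM in replicate 1, and Mirg, farther downstream, 4.36 TPM in replicate 2 and 12.8 TPM in replicate 1. The maternally expressed genes Meg3, Rian and Mirg thus stood in the same order in both libraries. Rtl1, a paternally expressed gene of the cluster for a retrotransposon-derived protein, had 0 counts in both.

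Igf2 encodes insulin-like growth factor 2, a fetal growth factor (chr7:142650766-142666816, minus strand). It had 5.63 TPM in replicate 2 (4.52 to 6.93) and 7.26 TPM in replicate 1 (6.24 to 8.41), from 89 counts in replicate 2 and 179 in replicate 1. H19, the non-coding RNA gene beside it (chr7:142575529-142578143, minus strand), had 1.66 TPM in replicate 2 (0.949 to 2.70) and 2.81 TPM in replicate 1 (1.97 to 3.89), from 16 counts in replicate 2 and 36 in replicate 1. For both genes the intervals of the libraries overlap. The ratio of H19 to Igf2 TPM was 0.295 in replicate 2 (0.162 to 0.506) and 0.387 in replicate 1 (0.263 to 0.556), so the coding gene was the higher of this pair in both libraries, unlike at the Meg3 and Dlk1 cluster. Antisense Igf2os had 0 counts in both.

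Cdkn1c and Grb10 are known as growth-restraining genes. Cdkn1c encodes the cyclin-dependent kinase inhibitor p57 (chr7:143458339-143461050, minus strand). It had 1.98 TPM in replicate 2 (1.29 to 2.90) and 5.85 TPM in replicate 1 (4.70 to 7.19), from 26 counts in replicate 2 and 90 in replicate 1, and these intervals do not overlap. Grb10 encodes an adaptor protein that binds and dampens the insulin and IGF1 receptors (chr11:11930508-12038683, minus strand). It had 7.60 TPM in replicate 2 (6.72 to 8.57) and 11.3 TPM in replicate 1 (10.3 to 12.4), from 269 counts in replicate 2 and 453 in replicate 1, again without overlap.

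Plagl1 and Peg3 encode zinc finger proteins. Plagl1, a transcription factor gene (chr10:13060504-13131694, plus strand), had 3.20 TPM in replicate 2 (2.56 to 3.96) and 7.84 TPM in replicate 1 (7.04 to 8.71), from 85 counts in replicate 2 and 349 in replicate 1. Peg3 (chr7:6703892-6730431, minus strand) had 20.9 TPM in replicate 2 (19.7 to 22.1) and 31.3 TPM in replicate 1 (30.0 to 32.6), from 1129 counts in replicate 2 and 2119 in replicate 1. Neither gene's intervals overlap between the libraries. For Plagl1, however, the effective length was 3523 bases in replicate 2 and 5097 bases in replicate 1. Its deposited posterior mean TPM was 12.35 in replicate 2 and 15.6 in replicate 1.

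Nnat encodes neuronatin, a small membrane protein of the endoplasmic reticulum known from neurons and beta cells (chr2:157560078-157562522, plus strand). It had 3.70 TPM in replicate 2 (2.42 to 5.42) and 5.77 TPM in replicate 1 (4.27 to 7.63), from 26 counts in replicate 2 and 49 in replicate 1, with overlapping intervals. It lies inside Blcap on the opposite strand, which had 66 counts in replicate 2 and 80 in replicate 1. The sources do not say whether strand was used in counting, so reads where both genes overlap cannot be told apart. Gnas (chr2:174284320-174346744, plus strand) was the highest of the 10, with 139.5 TPM in replicate 2 (132.8 to 146.4) and 214.3 TPM in replicate 1 (206.5 to 222.3), from 1627 counts in replicate 2 and 2854 in replicate 1. Its intervals do not overlap, and Nespas on the opposite strand had 0 counts in replicate 2 and 2 in replicate 1.

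In both libraries the order of the deposited TPM began with Gnas, Meg3, Peg3 and Grb10. The intervals of Gnas, Meg3, Peg3 and Grb10 did not overlap each other within either library. Igf2 came next in replicate 2 and Plagl1 in replicate 1, and among the 6 lower genes every pair of neighbours in the order had overlapping intervals. Within these 6, Igf2 lay above H19 without overlap in both libraries. With fewer reads, the lower genes were measured less precisely than Gnas. The order depends on the estimate used. By the deposited posterior mean TPM, Plagl1 (12.35 in replicate 2, 15.6 in replicate 1) stood above Grb10 (9.81 in replicate 2, 12.35 in replicate 1).

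The libraries were compared gene by gene with a two-sided exact binomial test on TMM-scaled counts, which compares these libraries only. A call needed a Benjamini-Hochberg adjusted p under 0.05, over all 12452 genes tested, and a difference of at least 1 on the log2 scale. Of the 10 imprinted genes 2 were called, both lower in replicate 2, where 12.3% of all tested genes were called, 4.0% lower and 8.31% higher. Plagl1 lay at a log2 ratio of -1.55 (95% exact interval -1.91 to -1.21, exact binomial test, adjusted p = 7.8e-21). Cdkn1c lay at a log2 ratio of -1.29 (-2.0 to -0.67, exact binomial test, adjusted p = 1.3e-04). With 10 genes, a count of 2 is not read as particular to them.

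The other 8 genes were not called. Their log2 ratios lay between -0.72 for Dlk1 and -0.19 for Meg3. Before adjustment, 7 of the 10 had p under 0.05. The share of all tested genes under this limit was not computed, so the count is not read as particular to the members. Several of the uncalled genes differed by more than counting error but by less than the fold required. Peg3, at -0.42 (-0.53 to -0.32), and Gnas, at -0.33 (-0.42 to -0.24), are the clearest of these. All 10 log2 ratios were below 0, with a median of -0.47, while 50.7% of all tested genes were below 0 and their median was -0.01. With library totals in place of TMM factors, the shift of -0.54 on all genes takes the members' median to -1.01. Then 4 are called lower, with H19 at -1.20 and Igf2 at -1.06 added, beside 2603 of all 12452 tested genes called lower. With the trend on GC content and transcript length removed, all 10 were again below 0, with a median of -0.85. The median of all 12324 genes tested under that setting was -0.005, and their share below 0 was not computed. Cdkn1c and Plagl1 stayed the 2 called genes, beside 452 of all these genes called lower and 525 higher. With an assumed biological dispersion of 0.1 in edgeR's exact test, neither Cdkn1c nor Plagl1 was called.

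**Figure D2:**
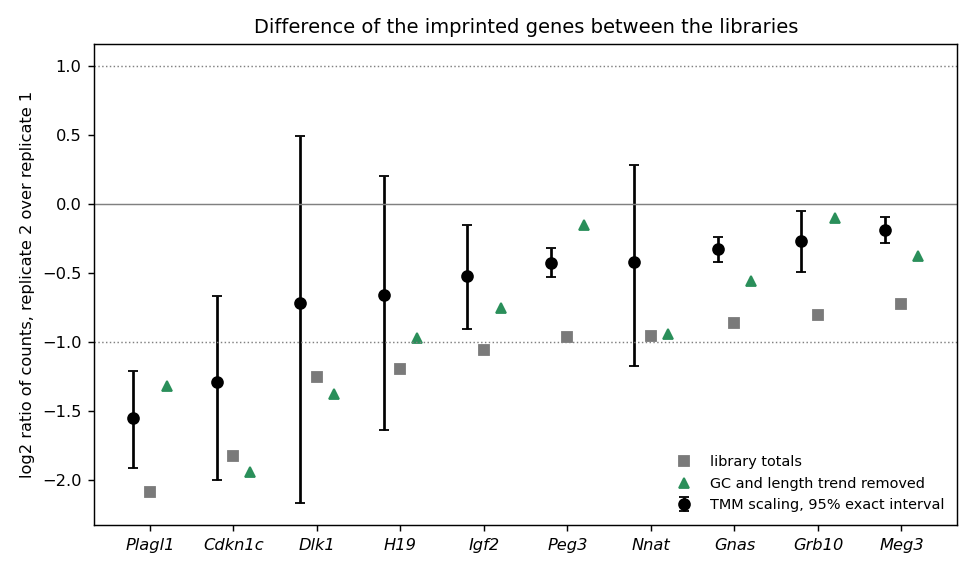
Log2 ratio of counts, replicate 2 over replicate 1, for each imprinted gene, from the lowest on the left. Circles with 95% exact intervals use TMM scaling, squares use library totals and triangles have the GC and length trend removed; dotted lines mark a log2 ratio of 1 in size. All points lie below 0, and under TMM scaling only Plagl1 and Cdkn1c lie below -1.

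Several marker lists also had low medians in replicate 2. Under TMM scaling 4.0% of all tested genes were called lower and 8.31% higher, the background for each marker list here. With the GC and length trend removed, 452 of all 12324 tested genes were called lower and 525 higher. Of 5 endothelial markers 1 was called lower, Emcn at -1.01, a call lost with the GC and length trend removed, at -0.86. With library totals 3 of these markers were called lower, beside 2603 of all 12452 tested genes. The list median was -0.49 under TMM scaling, and the list summed to 236.5 TPM in replicate 2 and to 295.7 TPM in replicate 1. Of 5 tested immune markers 1 was called lower, Cd79a at -1.38, with a median of -0.57. The immune list summed to 125.2 TPM in replicate 2 and to 165.2 TPM in replicate 1, and Cd3e was at 0 in replicate 2. The alpha cell hormone gene Gcg was called lower at -1.19, with 1566 TPM in replicate 2 and 4235 TPM in replicate 1, while the 7 tested beta cell markers had a median of 0.14 and 1 call each way. The fibroblast and stellate list had a median of 0.03 with no call among its 6 genes. The acinar list went the other way, with a median of 0.46, 1 of its 8 genes (Cela1) called higher and 1 below 0, though its median was 0.06 with the trend removed and -0.08 with library totals, and no gene was then called. Of the other lists, 1 of 6 duct markers (Krt8, whose call was lost with the trend removed) and 1 of 3 delta and PP cell markers (Ppy) were called higher, the 6 tested neuron and glia markers had 1 call each way, no adipocyte marker was called, and of 4 adrenal cortex and pituitary markers only Star reached 1 TPM in both libraries. The part of cell composition in the ratios of the imprinted genes was not tested.

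**Figure D3:**
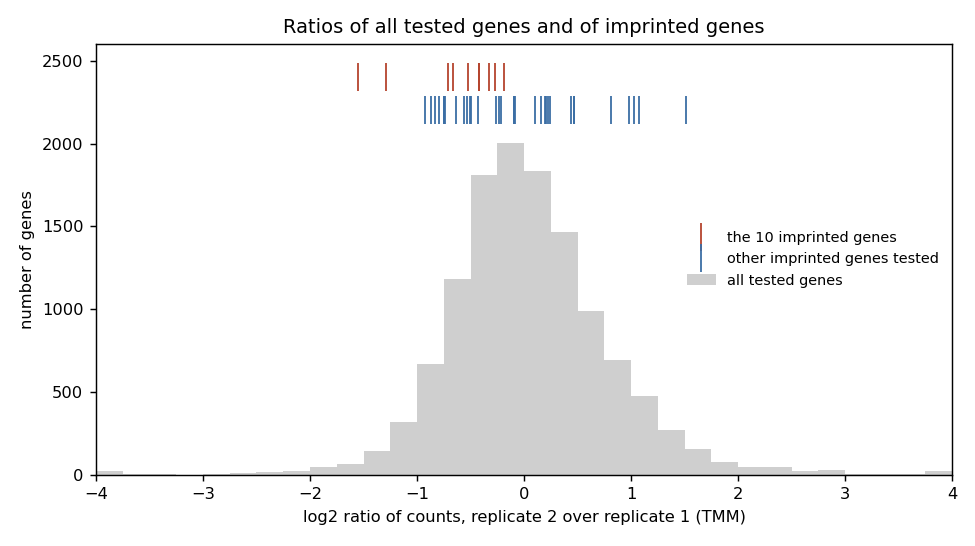
Number of tested genes by log2 ratio of counts, replicate 2 over replicate 1, in grey, with ticks for the 10 imprinted genes (upper row) and the other imprinted genes tested (lower row). The outermost bars include all values beyond them. The 10 genes all lie left of 0, and the other imprinted genes lie on both sides.

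Gnas transcripts came almost all from the Gs alpha start. The 4 transcripts of this start made up 91.4% of the Gnas level in replicate 2 and 98.3% in replicate 1. The 5 transcripts of the Nesp start held 1.97 TPM in replicate 2 and 1.76 TPM in replicate 1, and the 7 of the XL start 0.19 TPM in replicate 2 and 0.06 TPM in replicate 1. Transcripts of the exon 1A start held 9.54 TPM in replicate 2 and 0.67 TPM in replicate 1, where the difference came mostly from Gnas-221, with 78.0 counts in replicate 2 (deposited posterior SD 27.75) and 0 in replicate 1 (posterior SD 1.22). Classes were set by the nearest representative start, and a posterior SD of that size leaves the 1A share of replicate 2 loosely measured. The exon 1A class includes Gnas-202, annotated as protein-coding, with 18.28 counts in replicate 2 and 21.86 in replicate 1. In replicate 1 these were all the counts of the class.

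Among Gs alpha transcripts, those with exon 3 held 45.4% in replicate 2 and 43.1% in replicate 1 of the TPM of this class. Those that skip it held 38.2% in replicate 2 and 45.7% in replicate 1, and those that skip it with the 3 added bases 16.4% in replicate 2 and 11.2% in replicate 1. Gnas-208 alone had 57.0 TPM in replicate 2 and 83.8 TPM in replicate 1, and Gnas-206 had 48.6 TPM in replicate 2 and 96.3 TPM in replicate 1. The inclusion of exon 3 differed by little between the libraries, while the posterior SD of Gnas-206, Gnas-207 and Gnas-208 was 45.3 to 93.78 counts in these libraries. At this splice site the forms differ by 45 and 3 bases. Their annotated starts differ as well, and the transcripts are 1716 (Gnas-208), 1695 (Gnas-206) and 1789 bases long (Gnas-207). The exon 3 share also holds Gnas-205, a short transcript of 730 bases with 0.83 TPM in replicate 2 and 6.88 TPM in replicate 1.

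Meg3 was spread over many transcripts, 9 of its 11 with counts. The largest shares of TPM were those of Meg3-204 in replicate 2 (22.7%, against 14.0% in replicate 1) and Meg3-208 in replicate 1 (14.1% in replicate 2 and 27.7% in replicate 1). Meg3-205 held 20.2% in replicate 2 and 24.2% in replicate 1, Meg3-207 19% in replicate 2 and 9.05% in replicate 1, and Meg3-211 13.2% in replicate 2 and 0% in replicate 1. Meg3-202 (2.41% in replicate 2, 5.33% in replicate 1) and Meg3-203 (0% in replicate 2, 6.41% in replicate 1) passed 5% in replicate 1 alone. Posterior SDs of 18.1 and 18.2 counts for Meg3-208 and Meg3-211 in replicate 2 show how loosely short overlapping transcripts were divided.

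Meg3-209, the transcript of 14548 bases that holds the miR-770 hairpin printed above, held 7.14% of Meg3 TPM in replicate 2 and 11.9% in replicate 1. Counted as reads, the same transcript held 53.1% in replicate 2 and 69.2% in replicate 1, with 738.8 counts in replicate 2 and 1533 in replicate 1. The difference between the scales is that of transcript length. H19-202, which holds the miR-675 hairpin, had 0 counts in replicate 2 (posterior SD 3). In replicate 1 it had 28.81 of the 36 H19 counts (posterior SD 4). H19-205 had 11.8 of the 16 H19 counts in replicate 2 and 0 in replicate 1. The length of H19-205 differed between the annotations, so whether it holds the hairpin was not tested.

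**Figure D4:**
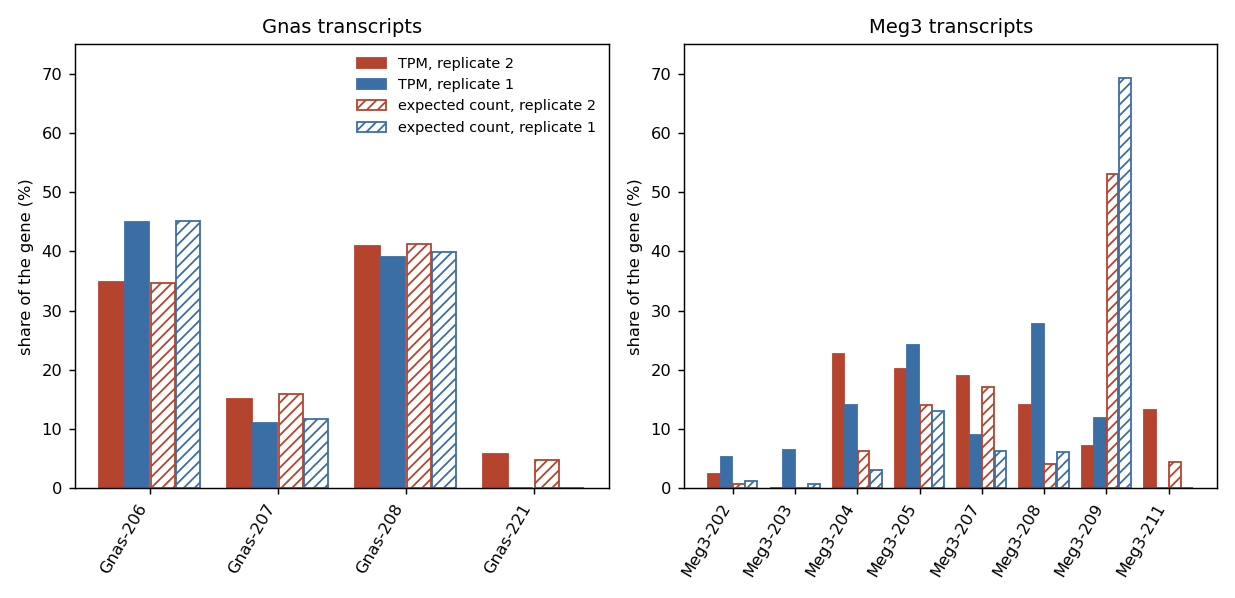
Share of the gene's TPM (filled) and of its expected count (hatched) by transcript, for Gnas and Meg3 transcripts with 5% or more of TPM in either library; replicate 2 is drawn left of replicate 1. The Gnas shares are alike on both scales, while Meg3-209 holds 7.14% (replicate 2) and 11.9% (replicate 1) of TPM but 53.1% (replicate 2) and 69.2% (replicate 1) of counts.

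Of the 10 genes, 4 had the same leading transcript by TPM in both libraries. These were Grb10-203 (51.2% in replicate 2 and 72.7% in replicate 1), Plagl1-202 (65.4% in replicate 2 and 100% in replicate 1), Peg3-201 (73.2% in replicate 2 and 80.1% in replicate 1) and Nnat-210 (48.9% in replicate 2 and 100% in replicate 1). By posterior mean TPM, Plagl1-202 held only 14.8% in replicate 2 and 46.1% in replicate 1, and Nnat-210 18.4% in replicate 2 and 32.0% in replicate 1, where its posterior SD was 11.27 of 49 counts, so these shares depend on the estimate used. For Igf2 the highest mean level was that of Igf2-208, with 50.8% in replicate 2 and 34.0% in replicate 1. It has no annotated coding sequence and held only 17.33 counts in replicate 2 and 17.16 in replicate 1. Dlk1-209 held 33.3% in replicate 2, of 8 counts for the gene, and 88.1% in replicate 1, of 19 counts. The 2 Cdkn1c transcripts shared 26 counts in replicate 2 and 90 in replicate 1, with Cdkn1c-202 at 0 counts in replicate 2 (posterior SD 5.36) and 71 in replicate 1 (posterior SD 19.5), so the division between them is not resolved.

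Promoter windows (250 bases before to 50 after the annotated start) were in the RefSeq table for 8 of the 10 genes, 16 windows in all. They held a median of 15 CpG dinucleotides and 61.2% GC, against 12 and 54.7% in 55 windows of the other imprinted genes and 7 and 52.7% in all 32851 windows. The motif TGCCGC, on either strand, is the sequence that ZFP57, a protein that protects imprinted methylation, is known to bind when methylated. It was found in 5 of the 16 windows, 31.2%, in Nnat, Igf2, Plagl1, Grb10 and Meg3, in 12 of the 55 windows of the other imprinted genes, 21.8%, and in 11.6% of all windows. These windows differ in GC content, and several are alternative starts of the same gene. A match describes the letters only. The windows of Plagl1, the gene with the lowest ratio, and of the Gs alpha start, which gave most of the Gnas reads, are shown, with TGCCGC or its reverse complement GCGGCA in capitals. The Gnas window holds neither and has 40 CpG dinucleotides, the Plagl1 window 26.
Plagl1, chr10:13090582-13090881, plus strand, GRCm38.p6: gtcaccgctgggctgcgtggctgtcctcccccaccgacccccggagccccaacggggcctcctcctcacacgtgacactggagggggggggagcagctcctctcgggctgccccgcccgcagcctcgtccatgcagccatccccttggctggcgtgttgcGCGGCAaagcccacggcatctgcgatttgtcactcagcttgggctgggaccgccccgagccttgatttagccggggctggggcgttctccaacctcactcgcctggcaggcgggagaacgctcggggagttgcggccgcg
Gnas, chr2:174329756-174330055, plus strand, GRCm38.p6: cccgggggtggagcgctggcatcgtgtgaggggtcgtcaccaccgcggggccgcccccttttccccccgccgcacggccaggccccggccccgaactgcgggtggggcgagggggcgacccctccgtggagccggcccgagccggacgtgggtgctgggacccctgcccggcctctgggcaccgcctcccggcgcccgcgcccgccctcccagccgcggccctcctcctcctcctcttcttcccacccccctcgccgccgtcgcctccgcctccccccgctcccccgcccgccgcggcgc

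Of 52 other imprinted genes in the list, 50 were matched and 30 reached 1 TPM in both libraries. Highest was Dcn, the proteoglycan decorin, imprinted in mouse placenta, with 217.8 TPM in replicate 2 and 442.4 TPM in replicate 1. Rian (60.2 TPM in replicate 2, 76.1 TPM in replicate 1), the tetraspanin gene Cd81 (52.6 TPM in replicate 2, 77.3 TPM in replicate 1), H13 (19.2 TPM in replicate 2, 25.5 TPM in replicate 1) and Commd1 (20.1 TPM in replicate 2, 10.3 TPM in replicate 1) followed. Ddc, Sgce, Mirg, Airn, Tssc4, Blcap and Slc38a4 ranged over 4.28 to 12.8 TPM across both libraries. Rtl1, Magel2, Calcr and Kcnk9 had 0 counts in both libraries. A count of 0 was read as up to 3 counts per library, a preset limit and not the Poisson interval used for the other levels.

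Of the 33 tested, 3 were called higher in replicate 2 and none lower, beside 8.31% of all tested genes called higher and 4.0% lower. Tssc4 had 9.10 TPM in replicate 2 and 4.28 TPM in replicate 1, at a log2 ratio of 1.51 (0.96 to 2.09, exact binomial test, adjusted p = 1.4e-07). Ndn, the gene of necdin, had 5.05 TPM in replicate 2 and 3 TPM in replicate 1, at 1.02 (0.42 to 1.66), and Copg2, of a coat protein subunit, 2.69 TPM in replicate 2 and 1.24 TPM in replicate 1, at 1.07 (0.49 to 1.68). Of the 33, 19 were below 0, with a median of -0.10. With library totals 12 were called, all lower, beside 342 higher and 2603 lower of all 12452 tested genes. The direction of calls turned with the scaling in this list and over all genes. With the GC and length trend removed, Ndn and Copg2 were called higher, Tssc4 was not, and Mirg was called lower at -1.10. Of all 12324 genes tested under that setting, 525 were called higher and 452 lower.

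Genes that work with the members were read from 5 lists. In the IGF and insulin list of 16 genes, 13 were tested, 1 was called higher and 1 lower, beside 8.31% of all tested genes called higher and 4.0% lower, the shares for each list here. With library totals 1 was called higher and 5 lower (Igf1, Insr, Igfbp5, Igfbp7 and Igf2bp2). Under that scaling 342 of all 12452 tested genes were called higher and 2603 lower, the background for each list here. With the GC and length trend removed, none of the IGF and insulin list was called higher and 2 were called lower. Under that setting 525 of all 12324 tested genes were called higher and 452 lower, again the background for each list here. The binding proteins led by level: Igfbp7 had 141 TPM in replicate 2 and 256.6 TPM in replicate 1, Igfbp5 56.6 TPM in replicate 2 and 108.4 TPM in replicate 1, and Igfbp3 53.1 TPM in replicate 2 and 65.7 TPM in replicate 1. None of these 3 was called under TMM scaling, but Igfbp7 was called lower with the trend removed (-1.30) and with library totals (-1.12), and Igfbp5 with library totals (-1.20). Igfbp6 was called higher, with 72.1 TPM in replicate 2 and 30.0 TPM in replicate 1 and a log2 ratio of 1.55 (1.33 to 1.77), a call that was lost with the GC and length trend removed, at 0.66. Igf2bp2, of an RNA-binding protein, was called lower, with 9 counts in replicate 2 and 43 in replicate 1 and a log2 ratio of -1.71 (-3.0 to -0.72), and Igf2bp1 and Igf2bp3 had 0 counts in both. The receptor genes Igf2r, Igf1r and Insr were among those not called.

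Of 8 genes of the Grb7 family and CDK inhibitors 6 were tested, and 1, Cdkn2c, was called higher, with 16 counts in replicate 2 and 5 in replicate 1 and a log2 ratio of 2.07 (0.65 to 3.96). Cdkn1a had 12 TPM in replicate 2 and 18.7 TPM in replicate 1 and Cdkn1b 6.95 TPM in replicate 2 and 13.5 TPM in replicate 1, so both stood above Cdkn1c, their relative, in each library. Grb7 had 3.88 TPM in replicate 2 and 3.85 TPM in replicate 1. Of 10 Notch ligands and receptors 8 were tested and 3 were called higher, Dll4 at a log2 ratio of 1.25, Jag2 at 1.60 and Notch4 at 1.08, beside the 8.31% of all tested genes called higher. None of these 3 was called with the GC and length trend removed, and with library totals Jag2 alone was, with Dll4 at 0.72 and Notch4 at 0.55. Notch1 had 5.66 TPM in replicate 2 and 3.40 TPM in replicate 1 and Jag1 2.90 TPM in replicate 2 and 4.99 TPM in replicate 1, neither called.

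Of 20 partners of Gs alpha (other G protein subunits, adenylyl cyclases, protein kinase A subunits and receptors) 17 were tested and 5 were called higher in replicate 2, beside 8.31% of all tested genes. These were Gnb2 (71.0 TPM in replicate 2, 43.6 TPM in replicate 1, log2 ratio 1.55), Gna11 (9.27 TPM in replicate 2, 5.37 TPM in replicate 1, log2 ratio 1.07), Adcy3 (1.19 TPM in replicate 2, 0.47 TPM in replicate 1, log2 ratio 1.43), Adcy5 (1.45 TPM in replicate 2, 0.85 TPM in replicate 1, log2 ratio 1.03) and the GLP1 receptor gene Glp1r (3.60 TPM in replicate 2, 1.39 TPM in replicate 1, log2 ratio 1.63). Gnai2 (40.7 TPM in replicate 2, 62.1 TPM in replicate 1) and Gnb1 (22.1 TPM in replicate 2, 52.2 TPM in replicate 1) were not called. Gnas at 139.5 TPM in replicate 2 and 214.3 TPM in replicate 1 was above every gene of this list in both libraries. With the GC and length trend removed, 2 of the 5, Adcy3 and Glp1r, were still called. With library totals 2 genes were called higher, Gnb2 and Glp1r, and 2 lower, Prkaca (-1.03) and Prkacb (-1.50), both protein kinase A subunit genes named after their values were seen.

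Of 11 genes of imprint maintenance 9 were tested and none was called in either direction. Trim28, the corepressor that ZFP57 recruits, had 38.7 TPM in replicate 2 and 40.4 TPM in replicate 1, Ctcf, of the insulator protein at the H19 and Igf2 cluster, 5.43 TPM in replicate 2 and 5.74 TPM in replicate 1, and Setdb1, of a histone methyltransferase, 5.41 TPM in replicate 2 and 5.23 TPM in replicate 1. Zfp57 itself had 1.73 TPM in replicate 2 and 0.89 TPM in replicate 1, and Dnmt3l, a cofactor of germ line methylation, had 0 counts in both libraries.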

How the data were processed

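The members and the gene lists were chosen with earlier results of these data known. Per the deposited README text, reads were placed on mm10 with GENCODE M4. The aligner and quantifier were not given in the sources. The deposited tables hold expected counts per gene and transcript, estimated and not always whole, and TPM scaled to the same total in each file. The deposited FPKM, and the deposited posterior mean TPM, treated as a signal, served as alternatives. The deposited percent of each isoform was recomputed from transcript TPM.

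GENCODE M21 (GRCm38) supplied names and positions, matched for 42462 of 43346 genes; Zfp264 and Peg13 were not matched. Of 109 transcripts of the members, 103 had the same length in both annotations, and exon structure was used for these only. Counts were rounded, scaled with edgeR 4.0.16 TMM factors in R 4.3.3 and tested with the exact binomial test at a mean of 10 counts or more, with 0.5 added to both counts for ratios. With 1 library a side no replicate-based model could be fitted, and p-values hold counting error only. Genes named were all members, the 12 other imprinted genes and the 3 genes of each partner list highest in mean TPM, and every called one; transcripts were those with 5% of TPM for Gnas and Meg3 and the leading one otherwise. Gnas classes followed the nearest representative start. Genes overlapping on opposite strands are uncertain. Alternatives used DESeq2 1.42.0 size factors, other totals, filters, values and an assumed dispersion. The test was tried on simulated counts. Python 3.11.15, scipy 1.17.1, pandas 2.3.3, numpy 2.4.6 and matplotlib 3.10.9 were used.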

Additional observations from a re-analysis of the deposited data

How the results depend on the processing

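No paired analysis was possible because both libraries belong to 1 group. Without replicate 1 or replicate 2 a ratio could not be computed. Over all tested genes, calls moved from 1533 to 2945 with library totals, 649 at a mean of 50 counts, 45 with an assumed dispersion of 0.1 in edgeR's exact test and 977 with the GC and length trend removed. The share of calls that were higher was 67.5%, against 11.6% with library totals, 50% with totals that leave out mitochondrial genes, Gm42418, Gm26917 and Lars2, and 53.7% with the trend removed. Calls among the 10 members moved from 2 to 4 with library totals and to 0 with the dispersion. Calls among the other imprinted genes moved from 3 to 12 and to 0, and no named gene of the partner lists was called with the dispersion. At 5 TPM instead of 1, 5 members passed in both libraries instead of 9; the count was 9 without replicate 1 and 10 without replicate 2, by posterior mean TPM and by rescaled TPM. The same leading transcript was found for 4 of 10 members by TPM and for 5 by expected count and by posterior mean TPM.

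Direction turned with library totals for Ddc (-0.069), Blcap (-0.33), H13 (-0.34), Grb7 (-0.52), Trim28 (-0.23), Ctcf (-0.42) and Setdb1 (-0.38). It turned with the reduced totals for Grb7 (-0.12) and Ctcf (-0.014), with upper quartile factors for Grb7 (-0.015), and with the trend removed for H13 (-0.39), Slc38a4 (0.19), Grb7 (-0.34) and Jag1 (0.019). None of these genes was called. The cause was not tested. The mean TPM of Plagl1 was 5.52, and 14.0 by the deposited posterior mean. Counts under 50, as for Dlk1, H19, Nnat and Cdkn1c in replicate 2, limit precision.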
